A study of Homo sapiens with 12 samples.

Results

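The genes described here are 57 protein-coding genes of the distal part of human chromosome 7q, bands 7q31 to 7q36, out of 60616 genes in the deposited tables. They lie on chromosome 7 between position 120950763, the start of ING3, and position 158704804, the end of NCAPG2 (GRCh38, GENCODE 44), an interval of 37.75 Mb with 260 protein-coding genes in the tables. The interval was chosen because a run of its genes had been seen to be lower in cabazitaxel-resistant than in parental Du145 cells. That comparison is therefore given as a description, without a test. The members were picked from the interval by name, so they were not a random sample of it. The questions are which members were as low in the cabazitaxel-resistant cells as the rest of the interval and which were not, and how the same genes behaved in docetaxel-resistant cells and after loss of the chromatin reader BRPF1.

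Du145 cells are epithelial and come from a prostate cancer. Du145-P denotes the parental cells, which received no drug and were passaged beside the resistant ones. Du145-DtxR and Du145-CbzR were selected from it with docetaxel or cabazitaxel in repeated exposures of 72 h, starting with 1 nM and ending with 125 nM. Each is a single selected line, with 2 libraries per line. In a second experiment, Du145-DtxR cells received a control siRNA (siControl) or an siRNA against BRPF1 (siBRPF1), with 3 libraries each and RNA taken 48 h after the siRNA medium was replaced. The replicates are described as biological, without saying whether they were separate cultures, so the spread and the p-values refer to these libraries and not to independently selected lines.

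Chromosome 7q31 to q36 carries no single pathway. It holds the catalytic subunit of the Polycomb repressive complex PRC2 (EZH2), which methylates histone H3 to keep genes silent, and KMT2C, a methyltransferase that marks enhancers, together with its partner PAXIP1. It also holds the kinase BRAF, the telomere-end binding protein POT1, subunits of the respiratory chain, the nuclear pore, the exocyst and the ubiquitin ligase scaffold CUL1, and several proteins that shape the actin cytoskeleton. Most of these proteins act in complexes whose other subunits are encoded elsewhere in the genome.

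Between 27512422 and 30593573 estimated counts were available per library of the 3 lines, and between 16667822 and 17306275 per siRNA library. The summed level of 5 epithelial markers (KRT8, KRT18, KRT19, EPCAM and CDH1) was 424 to 547 CPM (counts scaled to a common library size) over the 3 lines, most of it from KRT8 and KRT18. Single markers differed between the lines. CDH1 (E-cadherin) measured 38.9 and 34.8 CPM in Du145-P, 1.65 and 1.15 CPM in Du145-DtxR and 0.746 and 0.682 CPM in Du145-CbzR, and KRT19 measured 32.4 and 33.9 CPM, 182 and 173 CPM, and 6.36 and 6.37 CPM in that order. Their part in the results was not tested. Of 8 markers of other cells, PTPRC, CD3E and DCN had 0 to 3 counts in every library. The summed level of these 8 markers was 27.2 to 30.7 CPM in Du145-P, 74.5 to 77.2 CPM in Du145-DtxR and 52.2 to 54.9 CPM in Du145-CbzR, most of it from CD68 and COL1A1. The target of the siRNA, BRPF1, measured 29.4, 30.5 and 30.9 CPM with siControl and 8.95, 8.66 and 8.18 CPM with siBRPF1, a log2 fold change of -1.82 (standard error 0.10, edgeR's quasi-likelihood test, adjusted p = 1.79e-06).

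In Du145-CbzR, every tested member was lower than in Du145-P, most of them to about the same degree. All 57 members were found in the tables, and 55 had enough counts for the model. A member was said to follow when its log2 fold change was -0.3 or lower and both Du145-CbzR libraries were below both Du145-P libraries. By this rule 53 of 55 members followed, 2 lay between (NRF1 and CALD1) and 0 were at or above the parental level, against 26.8% of all 18218 tested genes that met the same rule and 48.9% that were at or above the parental level. The median log2 fold change of the members was -0.92, which is 0.527 of the parental level, with quartiles of -1.16 and -0.77. Over all tested genes the median was -0.01 and the quartiles were -0.38 and 0.28. Of the 55 members, 48 had a log2 fold change between -1.3 and -0.5, and 21 were below -1, a value passed by 8.98% of all tested genes. In bulk RNA, fewer cells that express a gene and less RNA per cell cannot be told apart. In each of the 55 members both Du145-CbzR libraries were below both Du145-P libraries, against 38.8% of all tested genes. The members just inside and just outside the limit were ZNF282 at -0.51 and NRF1 at -0.22.

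The lower level was not particular to the listed genes. Of 97 other tested protein-coding genes of the interval, 86 met the same rule (median -1.04), and of 189 between ABCB1 and the interval, 173 did (median -1.04). On the rest of chromosome 7 up to ABCB1, the drug efflux pump gene, 78 of 311 genes met it (median -0.05). At the centromeric edge the genes just outside were TSPAN12 (-1.5), LSM8 (-1.13) and ST7 (-0.65), and the members just inside were ING3 (-0.64) and FAM3C (-0.98). At the telomeric edge the members DNAJB6 (-0.80) and NCAPG2 (-1.08) were followed by ESYT2 (-1.21) and DYNC2I1 (-0.98), the last tested genes of the arm. Neither end of the interval was thus an edge of the lower values. When the interval was cut into 4 parts of equal length, the members' medians from the centromere to the telomere were -1.07, -0.90, -0.89 and -0.81, over 23, 14, 11 and 7 members.

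**Figure D1:**
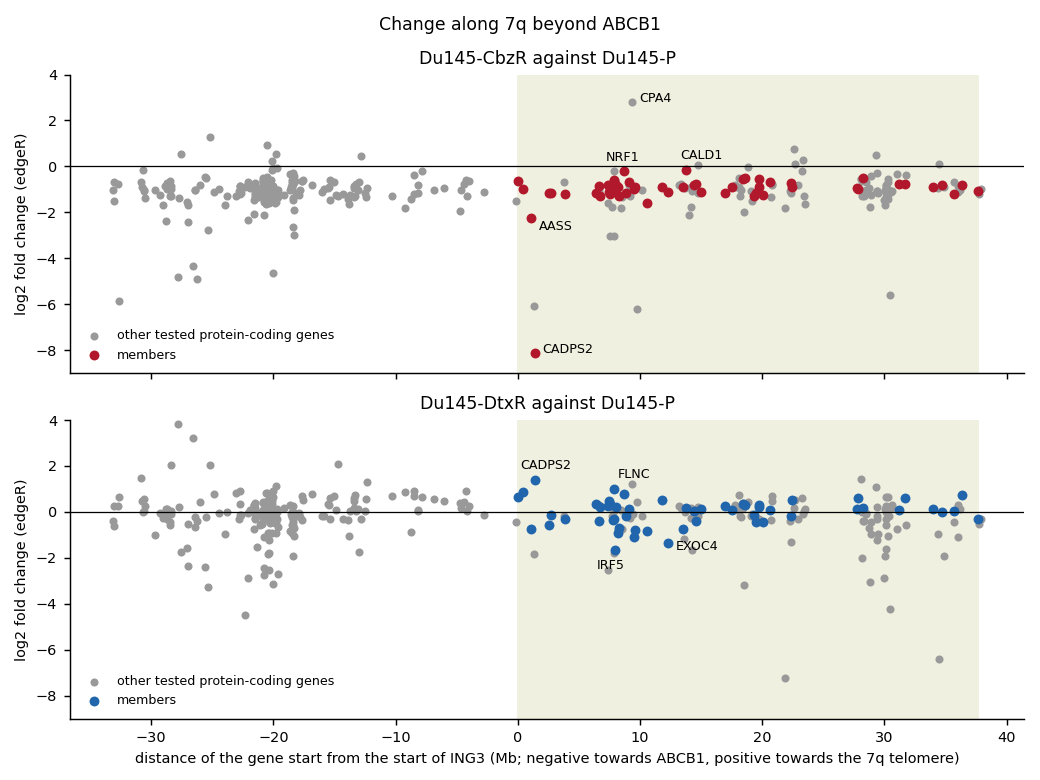
Log2 fold change against Du145-P of every tested protein-coding gene on 7q beyond ABCB1, in Du145-CbzR (upper plot) and Du145-DtxR (lower plot), against the distance of its start from the start of ING3 in Mb. Colored points are the members, grey points other genes and the shaded band the interval; in Du145-CbzR the members form a band with a median of -0.92, whereas in Du145-DtxR they lie on both sides of 0.

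The members with the lowest values relative to Du145-P, CADPS2 and AASS, stood close to each other on the chromosome. AASS (ENSG00000008311, chromosome 7 from 122064583 to 122144308), the enzyme that opens lysine breakdown, measured 31.9 and 29.96 CPM in Du145-P. It measured 18.5 and 18.6 CPM in Du145-DtxR, and the Du145-CbzR libraries had 7.05 and 5.98 CPM. The 3 lines did not overlap, and the log2 fold change in Du145-CbzR was -2.25 (standard error 0.09). The next tested gene, FEZF1, which is no member and encodes a transcription factor of the developing forebrain, had 66 and 87 parental counts, 20 and 18 counts in the docetaxel-resistant line and 1 count in each Du145-CbzR library. CADPS2 (ENSG00000081803, chromosome 7 from 122318411 to 122886759) follows it directly and encodes a protein that primes dense-core vesicles for release. CADPS2 had 333 and 286 parental counts, 736 and 713 counts in the docetaxel-resistant line, and again 1 count in each Du145-CbzR library. With 2 counts in all, the ratio of Du145-CbzR to Du145-P was -8.28 on the log2 scale, with a 95% counting interval of -11.32 to -6.42. For FEZF1 the same ratio was -6.26 (95% counting interval -9.32 to -4.38). The next tested gene on the telomeric side, NDUFA5, was back at -1.15. CADPS2 is also the member with the widest gap between the resistant lines, since in Du145-DtxR it was above Du145-P.

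The members next in order spanned several functions, and of them PODXL, AHCYL2 and SLC37A3 were below -1.3. PODXL, a sialomucin of the cell surface that counters adhesion, measured 52.8 and 56.2 CPM in Du145-P and 17.9 and 18.2 CPM in Du145-CbzR (log2 fold change -1.59, standard error 0.07). AHCYL2, a relative of the enzyme that clears S-adenosylhomocysteine, measured 42.7 and 39.9 CPM against 16.8 and 16.5 CPM (-1.31, standard error 0.07). SLC37A3, a lysosomal membrane transporter, measured 49.6 and 47.5 CPM against 18.2 and 21.02 CPM (-1.31, standard error 0.08). These 3 members had about 0.331 to 0.404 of the parental level. SND1, a nuclease of the RNA-induced silencing complex and a transcriptional coactivator, measured 145 and 143 CPM against 55.9 and 61.5 CPM (-1.29, standard error 0.05). MRPS33, of the small mitochondrial ribosome, measured 24.7 and 23.6 CPM against 10.0 and 10.4 CPM (-1.24, standard error 0.08). The telomere protein POT1 measured 44.4 and 42.4 CPM against 19.4 and 18 CPM, and HILPDA, a lipid droplet protein induced by hypoxia, 6.82 and 6.67 CPM against 2.73 and 3.06 CPM, both at -1.22. In none of these members did the libraries of the 2 lines overlap.

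The members that lost least were CALD1 and NRF1. CALD1 (ENSG00000122786, chromosome 7 from 134744252 to 134970729) encodes caldesmon, which binds actin and tropomyosin and restrains the pull of myosin. It measured 38.7 and 35.3 CPM in Du145-P and 33.9 and 32.0 CPM in Du145-CbzR, which is -0.17 on the log2 scale (standard error 0.08). The gap between the lowest parental and the highest resistant library was smaller than the gap between the Du145-P libraries. NRF1, the nuclear respiratory factor that drives genes of mitochondrial respiration, measured 12.8 and 11.9 CPM in Du145-P and 10.4 and 10.8 CPM in Du145-CbzR (-0.22, standard error 0.09). Both lie among lower genes. The members on either side of NRF1 were AHCYL2 (-1.31) and UBE2H (-1.15), and those on either side of CALD1 were AKR1B1 (-0.92) and CNOT4 (-0.81).

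After these, a group of members lay at the shallow side of the band. ZNF282, a zinc finger repressor, measured 25.8 and 26.9 CPM in Du145-P and 18.3 and 18.7 CPM in Du145-CbzR (-0.51, standard error 0.07). HIPK2, a kinase of the DNA damage response, measured 83.6 and 89.8 CPM against 59.9 and 60.9 CPM (-0.52, standard error 0.06). LUC7L2, a splicing factor of the U1 particle, measured 53.6 and 52.5 CPM against 37.4 and 35.8 CPM (-0.54, standard error 0.06). In these members the parental and the resistant libraries stood clearly apart, at about 0.690 to 0.701 of the parental level. NDUFB2, a subunit of respiratory complex I, measured 16.5 and 18.2 CPM against 12.6 and 11.1 CPM (-0.55, standard error 0.09), and its span shares 3464 bases with BRAF on the other strand. FLNC, the actin crosslinker filamin C, measured 290 and 299 CPM against 191 and 203 CPM (-0.58, standard error 0.05). ATP6V1F, of the proton pump of acidic vesicles, measured 36.0 and 39.6 CPM against 22.9 and 25.5 CPM (-0.64, standard error 0.08). ING3, of the NuA4 histone acetyltransferase complex, measured 8.70 and 7.86 CPM against 4.94 and 5.72 CPM (-0.64, standard error 0.13). Whether the reads were counted by strand is not stated, so NDUFB2 and BRAF are uncertain where they overlap, as are COPG2 and MEST, whose ends share 228 bases. LUC7L2 is uncertain too, since a readthrough transcript with FMC1 covers it.

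Among the 97 other tested protein-coding genes of the interval, 7 were at or above the parental level in Du145-CbzR. CPA4, a carboxypeptidase gene near MEST, measured 0.585 and 1.06 CPM in Du145-P and 5.59 and 5.82 CPM in Du145-CbzR (2.79, standard error 0.30). The others (SLC13A4, CTAGE15, TCAF2, OR2A7, ACTR3C and EN2) were under 3 CPM in every library and had log2 fold changes of 0.08 to 0.77 with standard errors of 0.26 to 0.60.

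The promoters of the members were read from RefSeq (GRCh38.p14), 250 bases before and 50 bases after a gene's start. Of the 57 members, 47 matched an entry, and where a gene has several the one nearest to its GENCODE start was taken. The entries for TRIM24, HILPDA, HIPK2, ING3, CADPS2, UBE2H, NRF1, SLC37A3, PAXIP1 and PODXL are missing. CALD1 is shown because it lost least, AASS because it had the lowest level relative to Du145-P of the members with an entry, and EZH2 as the chromatin gene. In these 3 sequences the capitals mark CG pairs.
CALD1: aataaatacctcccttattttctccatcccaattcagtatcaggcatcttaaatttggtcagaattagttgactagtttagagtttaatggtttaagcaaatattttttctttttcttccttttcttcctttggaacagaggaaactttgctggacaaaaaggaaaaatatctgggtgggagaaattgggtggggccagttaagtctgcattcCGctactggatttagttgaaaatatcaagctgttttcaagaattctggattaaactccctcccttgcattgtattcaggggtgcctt
AASS: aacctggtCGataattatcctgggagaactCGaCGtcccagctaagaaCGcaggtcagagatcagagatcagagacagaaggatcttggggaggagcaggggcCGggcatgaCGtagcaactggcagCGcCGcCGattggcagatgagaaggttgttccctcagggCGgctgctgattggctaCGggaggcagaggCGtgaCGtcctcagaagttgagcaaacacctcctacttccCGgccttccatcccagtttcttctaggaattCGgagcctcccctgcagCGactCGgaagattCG
EZH2: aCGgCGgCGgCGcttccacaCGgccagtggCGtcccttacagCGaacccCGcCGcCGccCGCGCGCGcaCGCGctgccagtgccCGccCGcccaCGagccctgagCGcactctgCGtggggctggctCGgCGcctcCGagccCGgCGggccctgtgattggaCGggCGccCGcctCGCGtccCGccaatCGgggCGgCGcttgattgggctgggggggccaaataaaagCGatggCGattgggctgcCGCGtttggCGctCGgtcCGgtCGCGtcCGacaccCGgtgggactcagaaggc

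The RefSeq start used for CALD1 lies 1215 bases from the GENCODE start of the gene, against 59 bases for AASS and 30 bases for EZH2, so the CALD1 window does not hold the start printed above. The CALD1 sequence (chr7:134745217-134745516, plus strand) holds 1 CG pair, and its ratio of observed to expected CG pairs is 0.10. AASS (chr7:122144200-122144499, minus strand) holds 18 with a ratio of 0.73 and EZH2 (chr7:148884242-148884541, minus strand) 46 with a ratio of 1.1. A ratio of at least 0.6 was found in 43 of 47 members (91.5%) and in 9119 of 11133 other tested protein-coding genes (81.9%), and the members below it were CALD1, CUL1, BRAF and CREB3L2. In Du145-CbzR, BRAF, CUL1 and CREB3L2 stood at -0.89, -0.95 and -1.17. NRF1, which also lost little, has no entry, and a link between this ratio and the change in Du145-CbzR was not tested. Among the 47 members, the RefSeq starts of ZNF800, NDUFB2 and DNAJB6 lay further from the GENCODE start than that of CALD1. Their distances were 39216, 5931 and 1623 bases. These ratios describe the letters in these windows.

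Among the chromatin and transcription genes, all except NRF1 were lower in Du145-CbzR by more than the limit, and they differed in Du145-DtxR. EZH2 (ENSG00000106462, chromosome 7 from 148807257 to 148884321) measured 35.2 and 31.9 CPM in the parental, 49.8 and 51.9 CPM in the docetaxel-resistant and 16.8 and 17.4 CPM in the cabazitaxel-resistant libraries. EZH2 was therefore highest in Du145-DtxR and lowest in Du145-CbzR, with no overlap. Its log2 fold change was -0.98 (standard error 0.07) in Du145-CbzR and 0.60 (standard error 0.07, adjusted p = 9.56e-06) in Du145-DtxR. KMT2C measured 54.9 and 59.5 CPM, 58.9 and 60.9 CPM, and 34.5 and 32.9 CPM in the same order, so its levels in Du145-P and Du145-DtxR overlapped (0.07, adjusted p = 0.365) and the Du145-CbzR level was lower (-0.76). PAXIP1, which joins KMT2C in its complex and also acts in DNA repair, measured 43.6 and 44.8 CPM, 48.0 and 49.1 CPM, and 23.2 and 23.9 CPM in the same order (0.14, adjusted p = 0.0651, and -0.91). TRIM24, a bromodomain coregulator of nuclear receptors, measured 38.4 and 37.3 CPM, 39.3 and 41.5 CPM, and 20.8 and 20.4 CPM (0.09, adjusted p = 0.226, and -0.88).

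The kinase BRAF, which passes signals from RAS to MEK, measured 46.4 and 46.6 CPM in the parental, 54.3 and 55.0 CPM in the docetaxel-resistant and 25.2 and 25.1 CPM in the cabazitaxel-resistant libraries. Its 3 lines did not overlap, and its log2 fold change was -0.89 (standard error 0.06) in Du145-CbzR and 0.23 (standard error 0.06, adjusted p = 0.00337) in Du145-DtxR. The condensin subunit NCAPG2 stood at -1.08 in Du145-CbzR and XRCC2, which serves homologous recombination, at -0.76. By role, the medians in Du145-CbzR were -0.90 over 10 chromatin and transcription genes, -1.08 over 3 genes of genome maintenance, -0.81 over 8 of RNA processing and nuclear transport, -0.89 over 5 of signaling and cell death and -1.05 over 4 of the ubiquitin and chaperone systems. They were -0.88 over 5 mitochondrial genes, -1.0 over 6 of actin and adhesion, -1.07 over 7 of the secretory pathway and -1.2 over 7 of metabolism and other functions. The members were chosen on this comparison, and only NRF1 and CALD1, in different groups, missed the limit of the rule. Every group median therefore had to lie below that limit.

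**Figure D2:**
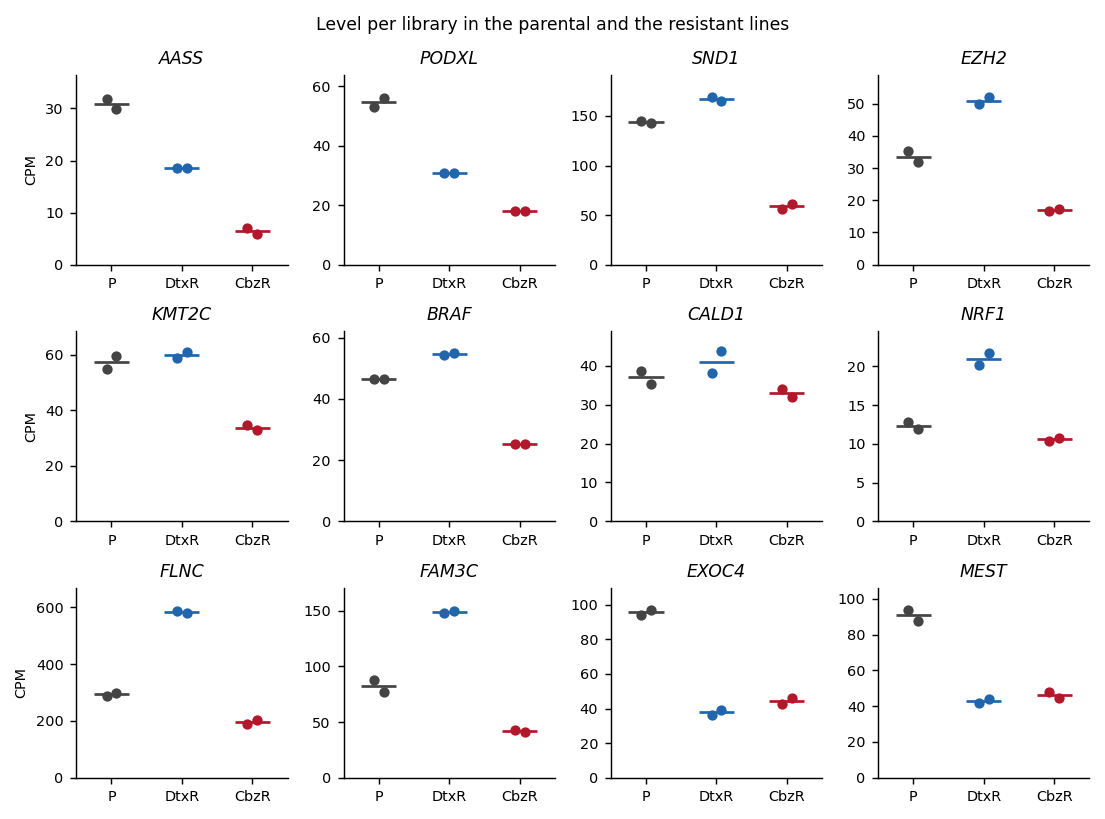
Level in CPM of 12 members in the parental line (P), Du145-DtxR and Du145-CbzR, with 1 point per library (n = 2 per line) and a line at the mean, on axes that start at 0. AASS, PODXL, SND1, EZH2, KMT2C and BRAF are lowest in Du145-CbzR, CALD1 and NRF1 are little below Du145-P there, FLNC and FAM3C are highest in Du145-DtxR, and EXOC4 and MEST are low in both resistant lines.

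Du145-DtxR did not share the common lower level. Against Du145-P, 23 of 55 members rose and 21 fell at an adjusted p under 0.05, and 11 did not pass, with a median log2 fold change of 0.09. Over all tested genes 31.1% rose and 32.0% fell, with a median of -0.02, so the members' 41.8% and 38.2% are each above the background by a margin that was not tested. This comparison shares the Du145-P libraries with the one that chose the members. In 28 members both Du145-DtxR libraries were above both Du145-P libraries and in 22 both were below, against 39.5% and 41.4% of all tested genes, and in 5 they overlapped. With the added limit of a log2 fold change past 1, 1 member rose and 3 fell, against 6.62% and 13.8% of all genes. On distal 7p, the first 20 Mb of the chromosome, the pattern of the lines was the other way, with a median of -0.67 over 86 genes in Du145-DtxR and -0.07 in Du145-CbzR.

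The members that rose most in Du145-DtxR were CADPS2, FLNC, FAM3C, NRF1, DNAJB6 and ING3. CADPS2 measured 10.8 and 9.49 CPM in Du145-P and 27.1 and 26.3 CPM in Du145-DtxR (log2 fold change 1.39, standard error 0.09, adjusted p = 6.56e-08). FLNC went from 290 and 299 CPM to 589 and 580.4 CPM (0.99, standard error 0.05, adjusted p = 7.86e-09). FAM3C, a secreted factor linked to the epithelial-mesenchymal transition, went from 87.9 and 77.1 CPM to 148 and 149.9 CPM (0.85, standard error 0.06, adjusted p = 1.87e-07). In each of them every Du145-DtxR library was above every Du145-P library. NRF1 went from 12.8 and 11.9 CPM to 20.2 and 21.8 CPM (0.76, standard error 0.08, adjusted p = 5.49e-06), and DNAJB6, a chaperone that holds back protein aggregation, from 117 and 109 CPM to 187 and 192 CPM (0.75, standard error 0.05, adjusted p = 1.06e-07). ING3 went from 8.70 and 7.86 CPM to 12.1 and 14.0 CPM (0.66, standard error 0.12, adjusted p = 4.25e-04). XRCC2 (0.62), EZH2 (0.60), the focal adhesion protein ZYX (0.54), CHCHD3 of the inner mitochondrial membrane (0.51) and IMPDH1 of guanine nucleotide synthesis (0.46) came next. The rest of the 23 that rose had log2 fold changes of 0.12 to 0.35.

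The members that fell most in Du145-DtxR were IRF5, EXOC4, MEST, SMO, PODXL and COPG2. IRF5, a transcription factor of innate immunity, measured 6.79 and 7.03 CPM in the parental, 2.28 and 2.03 CPM in the docetaxel-resistant and 3.54 and 3.61 CPM in the cabazitaxel-resistant libraries. It fell by 1.68 on the log2 scale in Du145-DtxR (standard error 0.16, adjusted p = 1.82e-06), and it was lower there than in Du145-CbzR. EXOC4, which tethers secretory vesicles to the plasma membrane, measured 94.2 and 96.8 CPM, 36.5 and 39.1 CPM, and 42.7 and 46.1 CPM in the same order (Du145-DtxR -1.34, standard error 0.06, adjusted p = 4.60e-09). MEST, an imprinted gene expressed from the paternal copy, measured 94.0 and 87.8 CPM, 42.0 and 44.1 CPM, and 48.2 and 44.4 CPM (-1.08, standard error 0.06, adjusted p = 3.25e-08). These 3 genes were the members with every Du145-CbzR library above every Du145-DtxR library. SMO, the signal transducer of the Hedgehog pathway, measured 37.1 and 36.0 CPM, 21.2 and 18.03 CPM, and 19.0 and 19.9 CPM (-0.90, standard error 0.08, adjusted p = 1.28e-06), and it was the member whose libraries overlapped between the resistant lines. PODXL measured 52.8 and 56.2 CPM in Du145-P and 30.95 and 30.8 CPM in Du145-DtxR (-0.82, standard error 0.06, adjusted p = 3.44e-07). COPG2, of the coat of Golgi vesicles, measured 53.8 and 52.9 CPM against 31.8 and 30.04 CPM (-0.79, standard error 0.06, adjusted p = 4.05e-07). AKR1B1, the aldose reductase, fell by 0.75, AASS by 0.74 and AHCYL2 by 0.69. SMO, MEST, COPG2 and AKR1B1 thus stood at near values in both resistant lines, at -0.91, -0.97, -0.92 and -0.92 in Du145-CbzR.

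By role, and beside 31.1% of all tested genes that rose and 32.0% that fell, 6 of 10 chromatin and transcription genes rose in Du145-DtxR and 1 fell (IRF5), and 4 of 8 RNA processing genes rose and 1 fell (NUP205). Of 7 secretory pathway genes 5 fell and 1 rose (CADPS2), and of 7 metabolic and other genes 4 fell and 2 rose. The groups were small, and these counts were not tested against each other. In the fits that left out 1 library, 8 members lost their call at least once, with adjusted p-values of 0.0504 to 0.198. These were WASL, HILPDA, ATP6V1F, UBE2H, MTPN, NDUFB2, CASP2 and ZNF282, each with a log2 fold change between -0.32 and 0.34. CASP2 lost its call in 6 such fits, and WASL, MTPN and ZNF282 in 5 each. Every such fit leaves 1 of the lines with 1 library.

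**Figure D3:**
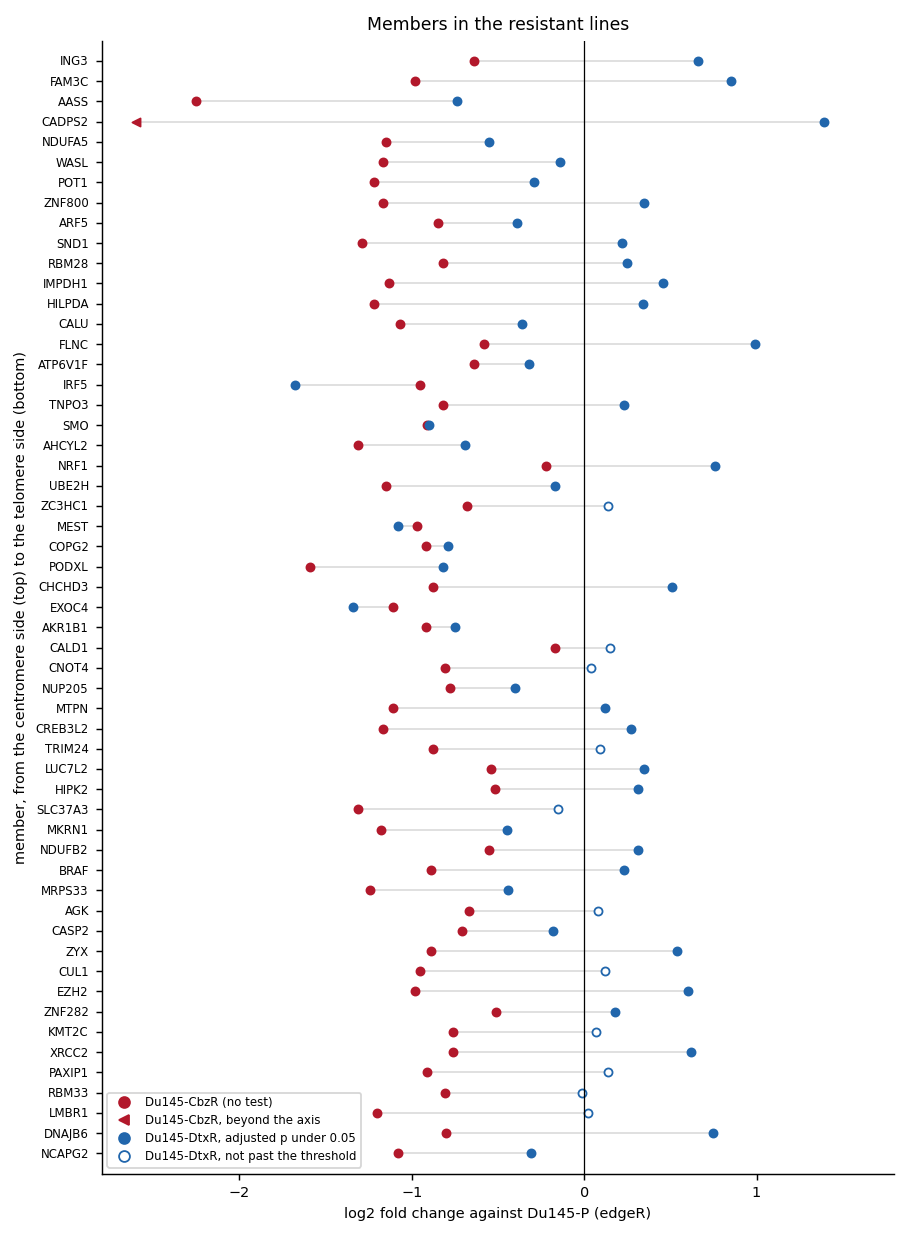
Log2 fold change against Du145-P of the 55 tested members in Du145-CbzR (red) and Du145-DtxR (blue, filled where the adjusted p is under 0.05), in the order of the chromosome. The red points lie left of 0 for every member, with CADPS2 beyond the axis, and the blue points are filled on the right for 23 members and on the left for 21.

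Set directly against Du145-DtxR, the Du145-CbzR libraries were both below both Du145-DtxR libraries in 51 of 55 members, against 40.5% of all tested genes, and both above in 3 (IRF5, MEST and EXOC4), against 41.0%. The median log2 fold change between the resistant lines was -0.92 over the members. FAM3C differed most after CADPS2, at -1.84, followed by IMPDH1 (-1.60), EZH2 (-1.58), FLNC (-1.57) and HILPDA (-1.56). At the other end were IRF5 (0.73), EXOC4 (0.23), MEST (0.10) and SMO (-0.01). These values share the Du145-CbzR libraries with the comparison that chose the members and carry no test.

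Knockdown of BRPF1, the scaffold of the MOZ and MORF histone acetyltransferase complexes, moved members in both directions. Of 55 tested members in Du145-DtxR, 9 rose and 9 fell, 37 did not pass, and the median log2 fold change was 0.08. Over all 15704 tested genes 11.6% rose and 15.1% fell, with a median of -0.01, beside 16.4% and 16.4% of the members. No member passed a log2 fold change of 1 in either direction (0 of 55 rose and 0 of 55 fell past it), against 0.49% and 3.34% of all genes. Without siControl replicate 3 the count that rose was 16, and without siBRPF1 replicate 1 it was 5, so this count depended on single libraries.

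MTPN (ENSG00000105887, chromosome 7 from 135926760 to 135977359), which encodes myotrophin, an inhibitor of actin capping protein, fell most. It measured 163, 169 and 192 CPM with siControl and 94.95, 83.6 and 108 CPM with siBRPF1 (log2 fold change -0.87, standard error 0.11, adjusted p = 2.70e-04). All siBRPF1 libraries were below all siControl libraries, as in 22.5% of all tested genes. IRF5 measured 9.68, 9.21 and 7.97 CPM against 5.57, 4.66 and 5.44 CPM (-0.77, standard error 0.14, adjusted p = 0.00221), and COPG2 19.9, 26.0 and 25.5 CPM against 15.4, 13.04 and 17.4 CPM (-0.64, standard error 0.13, adjusted p = 0.00559). FAM3C measured 84.2, 85.5 and 92.9 CPM against 66.9, 54.5 and 66.6 CPM (-0.48, standard error 0.10, adjusted p = 0.00455). CNOT4, a ubiquitin ligase that joins the CCR4-NOT deadenylase, measured 33.2, 27.8 and 34.4 CPM against 22.8, 22.7 and 23.3 CPM (-0.47, standard error 0.10, adjusted p = 0.00603). None of these 4 genes had overlapping groups. CREB3L2, a transcription factor of the secretory pathway released from the endoplasmic reticulum, measured 115, 133 and 169.7 CPM against 97.2, 91.3 and 121 CPM, so that its groups overlapped (-0.43, standard error 0.14, adjusted p = 0.0435). SND1 (-0.42), AHCYL2 (-0.36) and SMO (-0.28) fell as well.

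MEST and CALU rose most with siBRPF1. MEST measured 31.3, 27.0 and 28.96 CPM with siControl and 46.1, 40.4 and 48.1 CPM with siBRPF1 (log2 fold change 0.63, standard error 0.10, adjusted p = 0.00109). CALU, a calcium-binding protein of the secretory pathway, measured 161, 175 and 184 CPM against 273, 246 and 272 CPM (0.60, standard error 0.08, adjusted p = 5.41e-04). In both genes every siBRPF1 library was above every siControl library, as in 19.7% of all tested genes. CUL1, the scaffold of the SCF ubiquitin ligases, measured 51.7, 52.1 and 57.2 CPM against 72.7, 71.5 and 76.0 CPM (0.45, standard error 0.08, adjusted p = 0.00257). EZH2 measured 49.3, 45.3 and 46.7 CPM against 64.8, 61.3 and 62.6 CPM (0.42, standard error 0.08, adjusted p = 0.00358). PAXIP1 measured 45.2, 49.9 and 50.3 CPM against 62.9, 59.9 and 60.9 CPM (0.34, standard error 0.08, adjusted p = 0.0124). The groups of these 3 genes stood apart as well. ZNF282 measured 44.1, 42.9 and 38.8 CPM against 50.4, 55.3 and 53.2 CPM (0.34, standard error 0.09, adjusted p = 0.0154), and CALD1 26.0, 26.7 and 29.3 CPM against 37.4, 30.8 and 35.6 CPM (0.34, standard error 0.10, adjusted p = 0.0278). LUC7L2 (0.31) and SLC37A3 (0.29) completed the 9 that rose.

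The other chromatin genes of interest did not pass. KMT2C measured 32.3, 36.6 and 58.8 CPM with siControl and 49.8, 47.4 and 63.8 CPM with siBRPF1 (0.33, standard error 0.19, adjusted p = 0.230), with replicate 3 high in both groups. TRIM24 measured 29.96, 26.0 and 37.8 CPM against 35.1, 36.3 and 39.6 CPM (0.24, adjusted p = 0.183), and ING3 6.80, 6.67 and 9.09 CPM against 9.30, 8.31 and 8.36 CPM (0.20, adjusted p = 0.333). BRAF measured 30.4, 31.2 and 42.0 CPM against 38.2, 34.3 and 41.9 CPM (0.14, adjusted p = 0.446). In each of these 4 genes siControl replicate 3 was the highest of its group. Without that library KMT2C had a log2 fold change of 0.64 (adjusted p = 0.00226), TRIM24 of 0.40 (adjusted p = 0.0112) and BRAF of 0.31 (adjusted p = 0.0422). That fit kept siBRPF1 replicate 3, which was the highest of its own group in KMT2C, TRIM24 and BRAF. It was therefore unbalanced, and no rise of these genes is read from it. In the opposite direction, 7 of the 18 called members lost their call without at least 1 library, with adjusted p-values of 0.0689 to 0.189. These were AHCYL2, CALD1, CREB3L2, SLC37A3 and SMO in 4 of the 6 fits that left out a library, LUC7L2 without siControl replicate 2 or siBRPF1 replicate 1, and PAXIP1 without siBRPF1 replicate 1.

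**Figure D4:**
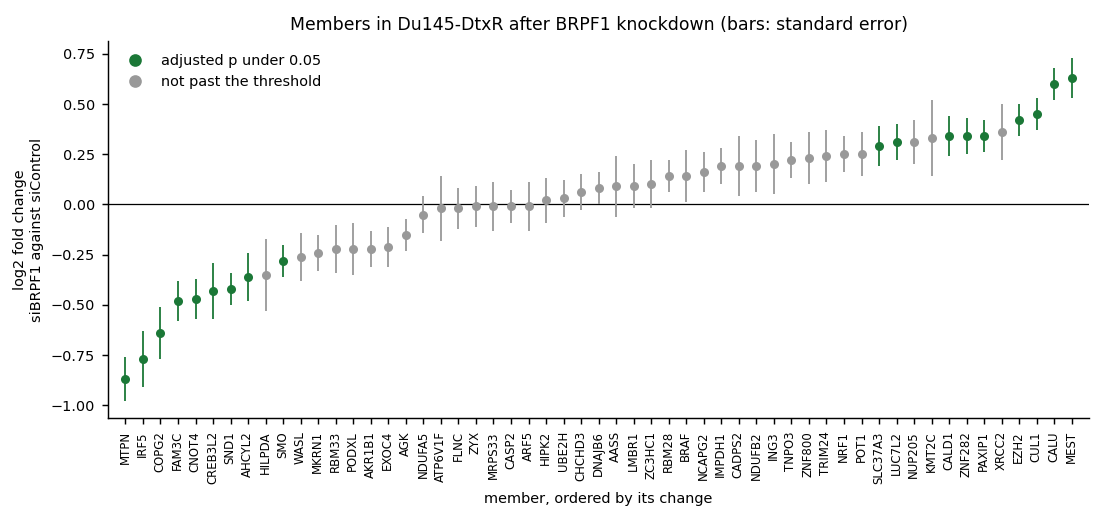
Log2 fold change of the 55 tested members in Du145-DtxR with siBRPF1 against siControl, ordered by size, with the standard error as bars (3 libraries per group). Green points have an adjusted p under 0.05, 9 on each side, and run from -0.87 for MTPN to 0.63 for MEST.

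The Du145-DtxR and siBRPF1 changes come from separate libraries and can be set beside each other. The level of Du145-DtxR itself differed between the 2 experiments for some members. Mean CPM in Du145-DtxR and with siControl was 439 and 173.5 for CALU and 2.155 and 8.95 for IRF5. It was near for EZH2 (50.9 and 47.1) and SND1 (167 and 156). What this difference does to the comparison was not tested. Of the members called in both, 4 fell in both (IRF5, SMO, AHCYL2 and COPG2), and 3 rose in both (EZH2, LUC7L2 and ZNF282). FAM3C, SND1, MTPN and CREB3L2 rose in Du145-DtxR and fell with siBRPF1, and CALU and MEST fell in Du145-DtxR and rose with siBRPF1. For all tested genes, the share called in both comparisons in each direction is not given here. These 13 members are therefore listed as a description, and their directions were not tested. Several of these calls depended on single libraries. With 1 siRNA library left out, SMO, AHCYL2 and CREB3L2 lost their siBRPF1 call in 4 fits each and LUC7L2 in 2. MTPN and ZNF282 lost their Du145-DtxR call in fits that left out 1 library of the lines. The summed epithelial markers were 768 to 988 CPM with siControl and 1086 to 1266 CPM with siBRPF1, most of it from the keratins. CDH1, on the same list, measured 2.00, 4.54 and 4.22 CPM with siControl and 0.287, 0.776 and 0.458 CPM with siBRPF1. The part of these markers in the results was not tested.

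Genes of the same complexes on other chromosomes did not share the lower level in Du145-CbzR. The 166 partner genes, from 17 complexes or processes that hold at least 1 member, had a median log2 fold change of 0.15. At an adjusted p under 0.05, 26 of these 166 genes fell, 75 rose and 65 did not pass. Over all tested genes 26.3% fell and 24.4% rose, so a smaller share of the partner genes fell and a larger share rose. These margins were not tested. Past a log2 fold change of 1, 0 partner genes fell and 1 rose, against 7.88% and 3.74% of all genes. Without Du145-CbzR replicate 1, 17 fell. Of the 24 members in these lists, 23 were lower than every tested partner of their own list, and the exception was CALD1, which was lower than 15 of 18 actin regulators. The members were chosen on this comparison, so their side of these counts is a description.

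Within PRC2, EZH2 stood at -0.98, while the scaffold EED was at 0.04 (adjusted p = 0.643), SUZ12 fell by 0.19 (adjusted p = 0.00497) and EZH1, the other catalytic subunit, fell by 0.43 (adjusted p = 1.96e-04). In the KMT2C and KMT2D complexes, KMT2D rose by 0.18 (adjusted p = 0.01), and WDR5, a subunit shared with other complexes, fell by 0.44 (adjusted p = 4.29e-05). Each of these values was closer to 0 than that of the member of its complex. Of the 5 shelterin partners of POT1 (-1.22), 4 rose and 0 fell, with TERF2IP at 0.64. Of the 4 condensin II partners of NCAPG2 (-1.08), SMC2 fell by 0.47 and the other 3 rose, with SMC4 at 0.60. Of 31 other subunits of complex I, 16 rose and 3 fell, beside NDUFA5 at -1.15 and NDUFB2 at -0.55. Of 22 other proteins of the small mitochondrial ribosome, 10 rose and 3 fell, and MRPS6 (-0.95) and MRPS25 (-0.82) came nearest to MRPS33 (-1.24). In the MAP kinase cascade, ARAF was at 0.07 (adjusted p = 0.418), beside BRAF at -0.89. Among the actin regulators TPM1, a tropomyosin, rose by 1.52 and FLNA, the close relative of FLNC, by 0.92.

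**Figure D5:**
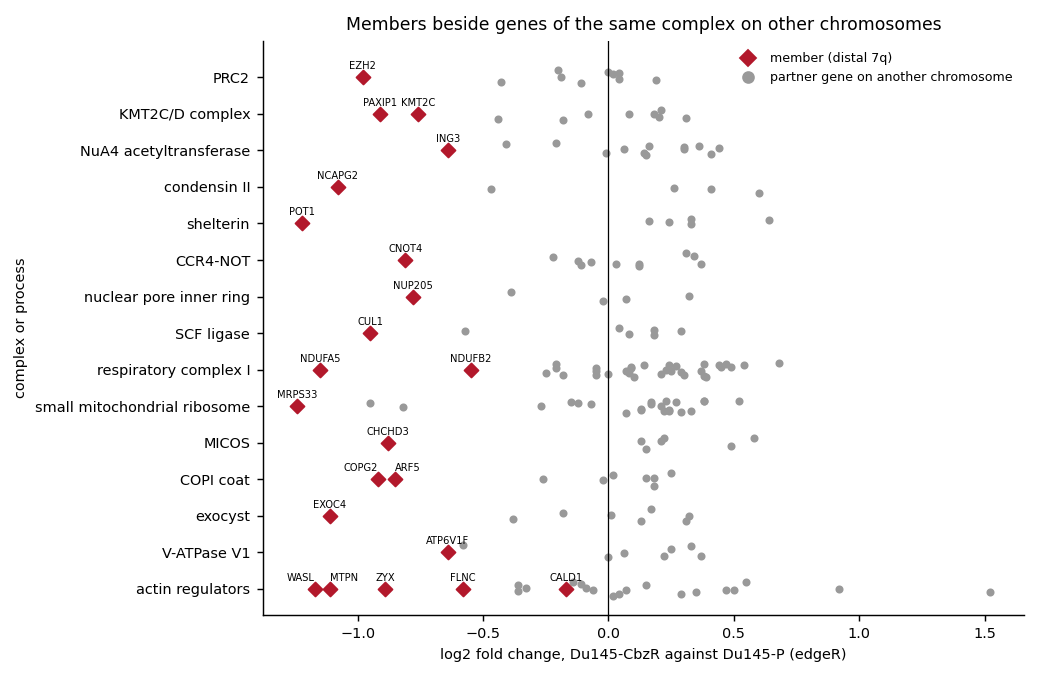
Log2 fold change in Du145-CbzR against Du145-P of members (red diamonds, named) and of partner genes on other chromosomes (grey points, 1 per gene, spread vertically for sight), by complex or process, without the lists that hold BRAF and XRCC2. In every row the members other than CALD1 lie left of all grey points.

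In the other comparisons more of the same partner genes rose than fell. In Du145-DtxR 86 of 166 rose and 25 fell (median 0.19), against 31.1% and 32.0% of all tested genes. With siBRPF1 27 of 166 rose and 10 fell (median 0.11), against 11.6% and 15.1% of all tested genes. In PRC2, EED rose with siBRPF1 by 0.31 (adjusted p = 0.0201) and SUZ12 by 0.37 (adjusted p = 0.0342), beside EZH2 at 0.42, while EZH1 fell by 0.31 (adjusted p = 0.0252). WDR5 rose by 0.58 (adjusted p = 4.40e-04) and KMT2D was at 0.21 (adjusted p = 0.359).

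The 2 members below the filter had few counts everywhere. CPED1 had 3 and 5 parental counts, 4 and 6 in the docetaxel-resistant line, 5 and 2 in the cabazitaxel-resistant line, 3, 4 and 9 with siControl and 2, 0 and 2 with siBRPF1. PTPRZ1, a receptor tyrosine phosphatase of neural cells, had 0 and 0, 3 and 6, 0 and 0, 3, 3 and 4, and 1, 0 and 0 in the same order. The counts of CPED1 gave a ratio of Du145-CbzR to Du145-P of -0.19 on the log2 scale with a 95% counting interval of -1.89 to 1.46, so that a loss of the size seen in other members was not detectable at this depth.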

How the data were processed

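RNA-seq of 12 libraries in 2 experiments was used. The authors used STAR (GENCODE GRCh38 transcriptome), Salmon and tximport on paired-end reads. Tool versions and strandedness are not given in the sources used here. The 2 tables deposited by the authors are named for TPM but hold estimated counts: library totals differ, and 58.4% and 62.8% of values above 0 are exactly whole. They were rounded, and 44 pseudoautosomal Y rows were merged with the matching X rows. Genes were filtered with filterByExpr (18218 and 15704 kept), scaled by TMM and tested with edgeR 4.0.16 (quasi-likelihood, R 4.3.3), with the 6 libraries of each experiment in 1 fit. Benjamini-Hochberg adjustment covered every tested gene, with calls under 0.05. Each standard error was derived from the log2 fold change and its F statistic, which makes it too small at low counts. Counting intervals (95%) and floors cover counting error only. Gene identifiers were paired with symbols and positions for 60419 of 60616 genes.

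The members, the 17 partner lists and the tests were chosen with earlier results of these data known. Values per library are given for the 8 lowest and 8 highest members in Du145-CbzR, the 6 largest called changes per direction in Du145-DtxR and with siBRPF1, and EZH2, KMT2C, PAXIP1, BRAF, ING3 and TRIM24; ties at the last place were included. FEZF1, CPA4, the partner genes named and the promoters shown were chosen after their values were seen. The alternatives were DESeq2 1.42.0 and its size factors, TMM without chromosome 7, no filter, a mean of at least 1 CPM, the replicate number as a block, only the groups compared in the fit, each library left out, the study's fold limit, and limits of -0.2 and -0.5 for members that follow. The fits were tested on simulated data. Some genes of the marker and partner lists are counted in the totals but not reported here by name, and 2 of the 17 lists are not drawn. DNA was not analysed here.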

Additional observations from a re-analysis of the deposited data

Results flagged for a closer look

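In 28 of the 55 tested members both Du145-CbzR libraries were below and both Du145-DtxR libraries above both Du145-P libraries. Since all 55 members were below in Du145-CbzR, on the values that chose the interval, this is the count of members above Du145-P in Du145-DtxR, a position held by 39.5% of all tested genes. The difference itself was not tested, because the members were chosen on the Du145-CbzR comparison, and with 2 libraries per line the separation rests on few values. CADPS2 had the widest gap between the lines, with a ratio of counts of -9.64 on the log2 scale (95% counting interval -12.68 to -7.78). The log2 fold change of Du145-CbzR against Du145-DtxR was -1.84 for FAM3C, -1.60 for IMPDH1, -1.58 for EZH2, -1.57 for FLNC, -1.56 for HILPDA, -1.55 for DNAJB6, -1.52 for ZNF800 and -1.51 for SND1. It was -1.44 for ZYX, -1.44 for CREB3L2, -1.39 for CHCHD3, -1.38 for XRCC2, -1.29 for ING3, -1.23 for MTPN, -1.12 for BRAF, -1.07 for RBM28, -1.07 for CUL1, -1.05 for TNPO3 and -1.04 for PAXIP1. The smallest gaps were -0.99 for NRF1, -0.97 for TRIM24, -0.89 for LUC7L2, -0.86 for NDUFB2, -0.83 for HIPK2, -0.82 for ZC3HC1, -0.75 for AGK and -0.69 for ZNF282. Among these, PAXIP1, TRIM24, ZC3HC1, AGK and CUL1 did not pass the test of Du145-DtxR against Du145-P.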

How the results depend on the processing

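The number of members that follow in Du145-CbzR was 53 or 54 under every alternative tried, and their median ran from -0.94 to -0.88 when 1 library was left out, with -0.88 without Du145-CbzR replicate 1. Without a filter, 1 of 57 members was not lower, and with 1 library left out the number was 0 in each fit. With 1 library left out, the median in Du145-DtxR ran from 0.06 to 0.12, with 20 to 21 members that rose and 18 to 20 that fell. With siBRPF1 the median ran from 0.05 to 0.10, the members that rose from 5 (without siBRPF1 replicate 1) to 16 (without siControl replicate 3), and those that fell from 6 to 9. Partner genes in Du145-CbzR ran from 57 to 76 that rose and from 17 (without Du145-CbzR replicate 1) to 26 that fell. With the study's limit of a log2 fold change past 1 added, 1 member rose and 3 fell in Du145-DtxR, 0 rose and 0 fell with siBRPF1, and 1 partner gene rose and 0 fell in Du145-CbzR. No result changed direction. Fitting only the groups compared was not run for the siRNA experiment, where it is the same fit.

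The groups share replicate numbers. The deviations of same-numbered libraries from their group means correlated at 0.063, 0.224 and 0.426 in the siRNA experiment, and at 0.11, 0.038 and -0.003 between pairs of lines, and siBRPF1 replicate 2 correlated best with siControl replicate 1 (0.257). The numbers were therefore not taken to pair the libraries. With the replicate block, 17 members rose and 14 fell with siBRPF1, with KMT2C and TRIM24 among those that rose, and the counts in the resistant lines stayed within 1.5 times. For this fit and the fits with 1 library left out, the shares of all tested genes called are not given here. Their counts of members are therefore not to be read against the shares of the main fit.

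Each line has 2 libraries, so what differs between separately selected lines cannot be told from these data. Depth limits CPED1 and PTPRZ1, and the counts of CADPS2 in Du145-CbzR.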
